A study of Mus musculus with 4 samples.

Results

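Cadherins and protocadherins are the subject here: the genes whose symbol is Cdh followed by digits, or starts with Pcdh. Of the 56036 H3K27me2 peaks in the 4 deposited lists of mouse zygotes, 364 were assigned by the authors to such a gene. The 93 member genes comprised 58 clustered protocadherins (the Pcdha, Pcdhb and Pcdhg genes of chromosome 18) and 35 others, and 39 of the 93 had at least 1 peak in at least 1 list.

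H3K27me2 was profiled by ULI-NChIP-seq, a native ChIP-seq for very few cells in which MNase cuts the chromatin before the antibody is added. PN5 zygotes, in which both pronuclei are fully grown, came from in vitro fertilisation, with eggs of superovulated C57BL/6J females of at least 6 weeks and sperm of PWK/PhJ males, and their polar bodies were removed. The mothers of Ezh2m+/p+ zygotes were Ezh2 fl/fl, and those of Ezh2m-/p+ zygotes were Ezh2 fl/fl; Gdf9-Cre, in which Cre is driven by an oocyte promoter and removes the floxed part of Ezh2, the main H3K27 methyltransferase, from the growing oocyte. All zygotes of both groups received an intact Ezh2 allele from the PWK/PhJ father. Each genotype was represented by 1 H3K27me2 library and 1 input library from pooled zygotes, so that the genotypes cannot be compared by a test and no p-value is given. The libraries were split into maternal and paternal reads by strain variants, which gave 4 peak lists of 5744 (Ezh2m+/p+ maternal), 9606 (Ezh2m-/p+ maternal), 17863 (Ezh2m+/p+ paternal) and 22823 (Ezh2m-/p+ paternal) peaks. Reads covered a median of 25% and 35.5% of a chromosome in the maternal genome, for Ezh2m+/p+ and Ezh2m-/p+, against 2.18% and 3.17% in the paternal genome. The part that this unequal coverage plays in any contrast between the parental genomes was not tested. The paper lists a lower sequencing depth for the H3K27me2 and input libraries of Ezh2m-/p+ than for those of Ezh2m+/p+. The part that depth plays in contrasts of peak number or fold between the genotypes was not tested. No value in the lists measures Ezh2 itself, so the genotype labels could not be checked here.

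Cadherins are calcium-dependent adhesion proteins of the cell surface. Classical cadherins bind the same cadherin on the next cell and hold the actin cytoskeleton through catenins, and E-cadherin, the product of Cdh1, carries the adhesion of the cleaving embryo and is needed for its compaction. Protocadherins are the largest branch of the family and are known mostly from neurons, where the isoforms of the clustered genes give each cell a surface identity. H3K27 methylation is the mark of Polycomb repressive complex 2, and many developmental genes that are silent in early embryos carry it.

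The sequences below come from 6 places in peaks at or assigned to member genes. The windows and coordinates are of the RefSeq GRCm38.p6 (mm10) reference, which is the C57BL/6J sequence. For paternal peaks the PWK/PhJ alleles were therefore not read. Capitals mark CpG dinucleotides. The first pair are promoter windows, from 250 bases before to 50 bases after a RefSeq start, that lay whole inside a peak. Cdh24 is chr14:54641315-54641614 on the minus strand and Pcdh19 is chrX:133688944-133689243 on the minus strand.
Cdh24 promoter: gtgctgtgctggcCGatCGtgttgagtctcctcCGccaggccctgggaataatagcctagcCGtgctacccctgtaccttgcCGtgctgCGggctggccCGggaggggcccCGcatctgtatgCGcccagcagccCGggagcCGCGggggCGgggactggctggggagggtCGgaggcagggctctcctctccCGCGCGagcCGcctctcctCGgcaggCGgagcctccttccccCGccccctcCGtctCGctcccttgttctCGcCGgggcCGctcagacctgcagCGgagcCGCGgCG
Pcdh19 promoter: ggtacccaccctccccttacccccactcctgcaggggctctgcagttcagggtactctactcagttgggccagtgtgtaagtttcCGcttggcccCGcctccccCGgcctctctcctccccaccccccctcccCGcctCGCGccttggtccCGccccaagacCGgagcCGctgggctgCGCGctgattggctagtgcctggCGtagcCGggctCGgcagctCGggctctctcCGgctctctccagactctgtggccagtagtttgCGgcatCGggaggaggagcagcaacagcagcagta
The Cdh24 window held 30 CpG and the Pcdh19 window 18, against a median of 7 over 32851 promoter windows of all genes. The median over the 25 windows of member genes was 14. At least 30 CpG were found in 11.7% of all windows and at least 18 in 29.7%. The next 4 are the central 100 bases, on the plus strand, of the member peak of largest fold (Cdh20, chr1:104820551-104820650), of the Pcdh11x peak of largest fold (chrX:120968151-120968250), of a Cdh1 peak that overlapped between the genotypes (chr8:106634551-106634650) and of the maternal peak at the Cdh16 start site (chr8:104624751-104624850).
Cdh20 intron: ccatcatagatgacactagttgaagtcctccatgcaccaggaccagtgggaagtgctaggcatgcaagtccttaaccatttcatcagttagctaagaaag
Pcdh11x downstream: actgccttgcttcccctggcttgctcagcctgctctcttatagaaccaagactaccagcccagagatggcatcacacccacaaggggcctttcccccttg
Cdh1 intron: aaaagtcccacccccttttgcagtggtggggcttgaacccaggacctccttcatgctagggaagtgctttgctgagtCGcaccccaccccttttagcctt
Cdh16 start: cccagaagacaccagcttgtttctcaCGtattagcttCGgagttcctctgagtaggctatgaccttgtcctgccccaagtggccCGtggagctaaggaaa
The centres of the Cdh20 and Pcdh11x peaks held 0 CpG, that of Cdh1 held 1 and that of Cdh16 held 3.

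The member peaks were few in the maternal and more numerous in the paternal lists. In the Ezh2m+/p+ maternal list 21 peaks belonged to the family, which is 0.366% of it (95% Wilson interval 0.239% to 0.558%), and 34 in the Ezh2m-/p+ maternal list, or 0.354% (0.253% to 0.494%). The Ezh2m+/p+ paternal list held 123 (0.689%, 0.577% to 0.821%), and the Ezh2m-/p+ paternal list 186 (0.815%, 0.706% to 0.94%). These intervals cover the counting of peaks only. Pcdh11x alone held 150 of these paternal peaks and no maternal peak. Without Pcdh11x the paternal shares were 0.386% and 0.394%, within the intervals of both maternal lists. The ratio of paternal to maternal member peaks was 5.86 (Ezh2m+/p+) and 5.47 (Ezh2m-/p+), where the whole lists gave 3.11 and 2.38, and without Pcdh11x the family gave 3.29 and 2.65. From Ezh2m+/p+ to Ezh2m-/p+, the number of maternal member peaks rose 1.62 times and that of paternal member peaks 1.51 times, against 1.67 and 1.28 times for all peaks. Without Pcdh11x the paternal increase was 1.3 times, and for Pcdh11x it was 1.78 times (from 54 to 96 peaks).

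**Figure D1:**
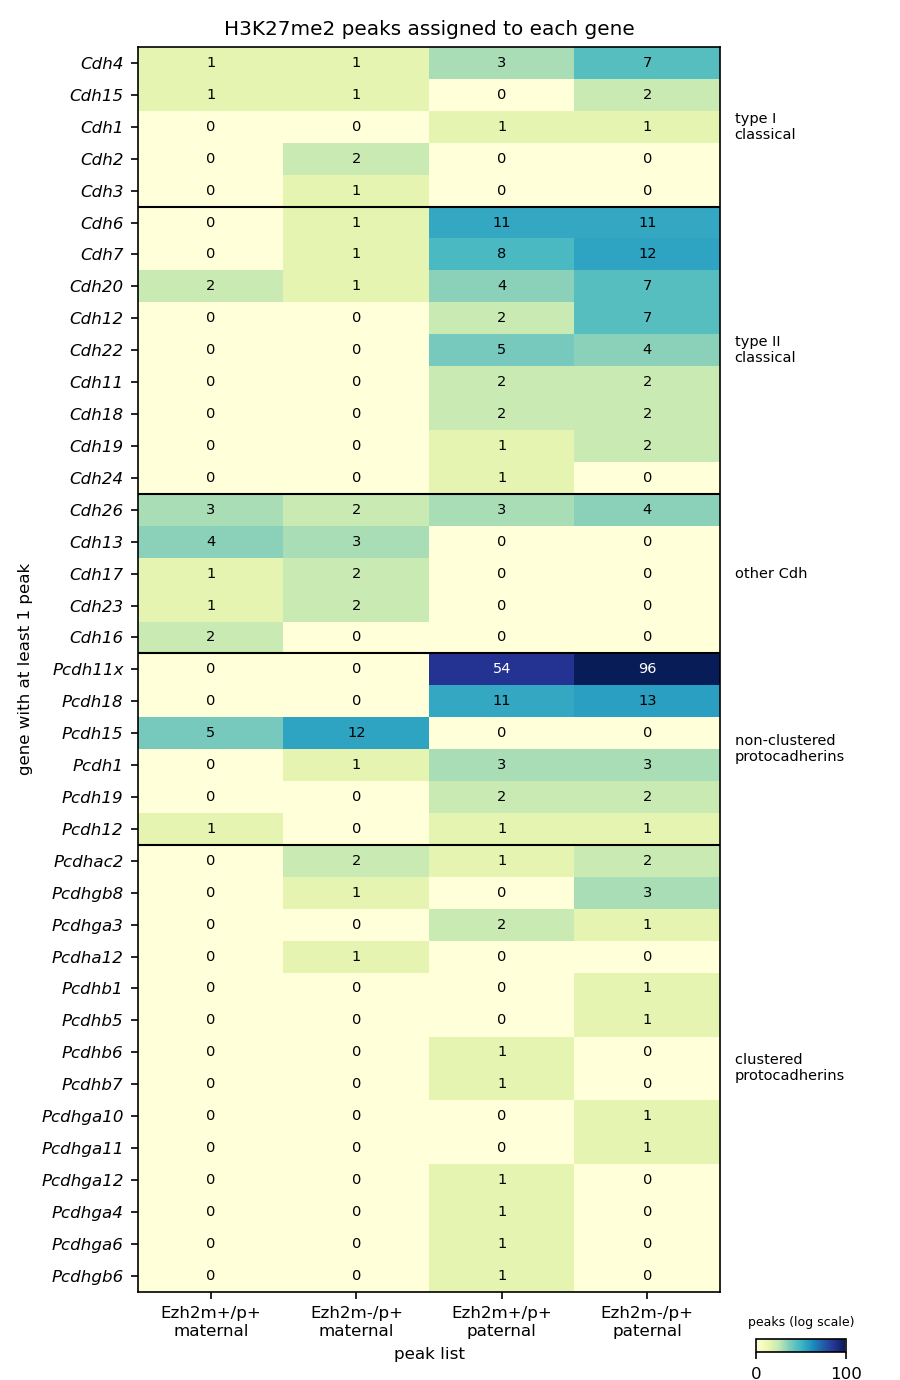
Number of H3K27me2 peaks assigned to each of the 39 genes that had any, in the 4 peak lists (columns), grouped by subfamily. Cell colour follows the number on a log scale. Pcdh11x stands out with 54 and 96 paternal peaks, while Pcdh15 and Cdh13 have counts in the maternal columns only.

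Counted by gene, 10 of the 93 members had a peak in the Ezh2m+/p+ maternal list, where 14.6% of 21631 protein-coding genes had one. In the Ezh2m-/p+ maternal list 16 members had a peak (17.2%), beside 21.1% of protein-coding genes. In the paternal lists 25 members (26.9%, beside 20.3%) and 24 members (25.8%, beside 23.8%) had one. All 4 shares of the family had Wilson intervals that included the share of protein-coding genes. The 35 members outside the cluster had peaks more often: 10 (28.6%, interval 16.3% to 45.1%), 13 (37.1%), 17 (48.6%, 33% to 64.4%) and 17 (48.6%) of them did, in the order of the lists above. Their median length was 123 kb. Among genes of at least 100 kb, 5 of 19 members outside the cluster had a peak in the Ezh2m+/p+ maternal list (26.3%), beside 39.3% of 2427 protein-coding genes of that length. In the Ezh2m-/p+ maternal list 8 of 19 did (42.1%, beside 50.5%), and in each paternal list 10 of 19 did (52.6%, beside 40.3% in Ezh2m+/p+ and 44.7% in Ezh2m-/p+). All 4 intervals for the long members included the share of long protein-coding genes. Over the bodies of these 19 genes the density was 1.16, 1.8, 2.96 and 5.82 peaks per Mb, lower in each list than the 2.97, 4.73, 7.45 and 9.57 peaks per Mb of all long genes. Without Pcdh11x the paternal densities were 1.47 and 2.61 peaks per Mb. The lengths were not closely matched, with a median of 393 kb for these members and 172 kb for all long genes.

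**Figure D2:**
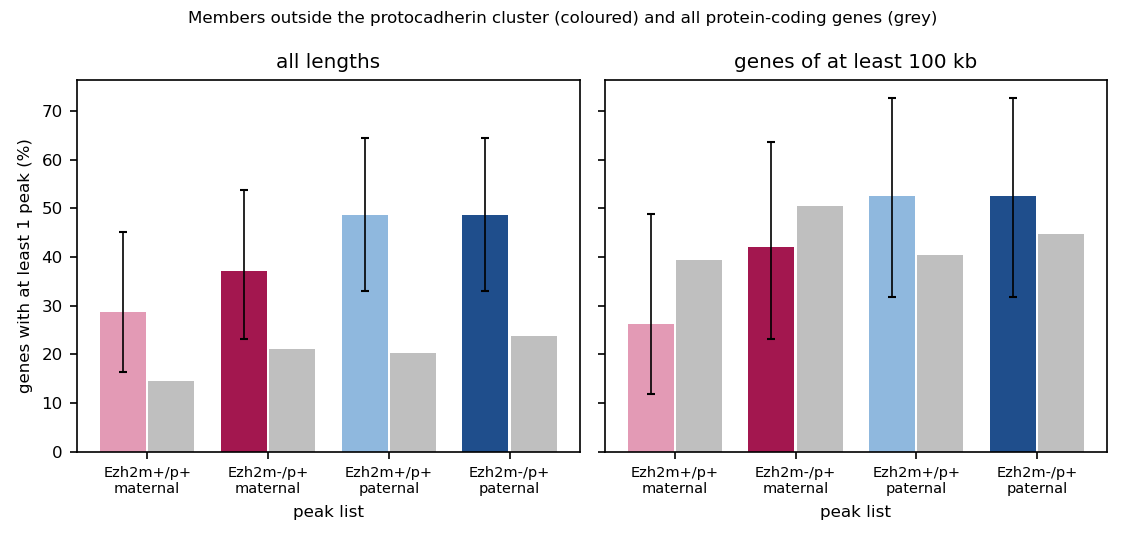
Share of genes with at least 1 peak in each list, for members outside the protocadherin cluster (coloured bars, with 95% Wilson intervals) and for all protein-coding genes (grey bars), at all lengths and at 100 kb or more. At all lengths the coloured bars stand above the grey ones. Among long genes the intervals include the grey bars, and the 2 maternal bars stand below them.

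Of the 39 genes with a peak, 8 had maternal peaks only (20.5%), 21 paternal peaks only (53.8%) and 10 both (25.6%). Over all 11472 genes named in the lists these shares were 41.4%, 40.1% and 18.4%. Of the 14 clustered genes with a peak, 11 had paternal peaks only. Of the 25 members with a peak outside the cluster, 7 had maternal peaks only (28%), 10 paternal peaks only (40%) and 8 both (32%). Among the 18 members with at least 4 peaks, 2 were maternal only (11.1%), 7 paternal only (38.9%) and 9 had both (50%). Over all 4117 genes with at least 4 peaks these shares were 15.6%, 45.2% and 39.2%. Only Cdh4, Cdh20 and Cdh26 had a peak in all 4 lists.

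The type I classical cadherins are the adhesion proteins of epithelia, nerve and muscle. All 5 had peaks, 21 in all. Cdh4 (R-cadherin, of retina and brain) had 1 peak in each maternal list, 3 in the Ezh2m+/p+ paternal and 7 in the Ezh2m-/p+ paternal list, with folds over input from 5.91 to 110 in the last. The maternal peaks of Cdh4 lay in its second intron at folds of 40.2 (Ezh2m+/p+) and 21.4 (Ezh2m-/p+). None of its 3 and 7 paternal peaks overlapped between the genotypes, numbers too small to set against the 66.1% and 45.7% of the whole paternal lists. Cdh15 (M-cadherin, of muscle) had 1 peak in each maternal list and 2 in the Ezh2m-/p+ paternal list. Cdh2 (N-cadherin, of nerve and heart) had 2 peaks, both in the Ezh2m-/p+ maternal list at folds of 20.7 and 26. Cdh3 (P-cadherin, of placenta and skin) had 1, in the same list, at a fold of 21.4 in its eighth exon.

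Cdh1 had no maternal peak in either genotype. In the paternal genome 1 peak in its second intron was assigned to it in each genotype, chr8:106633801-106635399 at a fold of 84.3 in Ezh2m+/p+ and chr8:106633401-106635399 at 31.5 in Ezh2m-/p+, and the first lay whole inside the second. The assignment by nearest start site hides further peaks. In all, 4 peaks of the Ezh2m+/p+ paternal list and 3 of the Ezh2m-/p+ paternal list overlapped the body of Cdh1. The others lay over its exons 3 to 7 and were assigned to the neighbouring gene Tango6. Their folds were 7.02, 60.2 and 13.5 in Ezh2m+/p+ and 7.29 and 13.8 in Ezh2m-/p+. At exon 3 both genotypes had a peak of 3199 bp, at folds of 7.02 and 7.29. None of these peaks reached the start of Cdh1.

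The type II cadherins pattern nervous tissue, vessels and mesenchyme, and 9 of the 13 had peaks. Of their 88 peaks, 36 were in the Ezh2m+/p+ paternal and 47 in the Ezh2m-/p+ paternal list, and 5 were maternal. Most lay far from a start site: 57 of 88 (64.8%) were annotated as distal intergenic, and the median distance to the start site was 198 kb. In the whole paternal lists 40.2% and 40.7% of peaks were distal intergenic, and the median distances were 23.7 and 25.7 kb. Of the 88 peaks, 29 overlapped the gene they were assigned to. Distances to a start are those of the authors' annotation, which takes the nearest of a gene's annotated starts. Cdh6 (K-cadherin, of kidney and hindbrain) had 11 paternal peaks in each genotype. Of these 22 peaks, 19 lay upstream by more than 900 kb, the farthest 1593 kb from the start, and 1 overlapped the gene. The folds of Cdh6 peaks spanned 7.52 to 66.2 in Ezh2m+/p+ paternal and 5.42 to 142 in the Ezh2m-/p+ paternal list. Such peaks are called Cdh6 peaks only because no annotated start is nearer. Cdh7, a cadherin of the neural crest and inner ear, had 8 and 12 paternal peaks, of which 13 formed a group between 300 and 400 kb upstream. Of its 8 Ezh2m+/p+ paternal peaks 5 overlapped an Ezh2m-/p+ peak, where 66.1% of the whole list did.

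Cdh20 differed from these in that its paternal peaks lay inside the gene. All 4 of its Ezh2m+/p+ paternal peaks and 5 of 7 in Ezh2m-/p+ were in its first intron, 28.1 to 151 kb from the start. The largest fold of any member peak was found there, 347 in Ezh2m-/p+ at chr1:104819001-104822199. The Ezh2m+/p+ paternal peak that it contained, of 2599 bp, had a fold of 10.5. A neighbouring pair had folds of 13.8 and 7.52 in the same order, and a further pair 63 and 7.52. Of the maternal peaks of Cdh20, 1 of Ezh2m+/p+ at a fold of 36.2 lay in the same intron, 133 kb from the start, and overlapped no paternal peak. The other of Ezh2m+/p+ (fold 6.03) lay at 215 kb and that of Ezh2m-/p+ (23.7) at -207 kb. Cdh22, a cadherin of the brain, had 5 and 4 paternal peaks and 3 overlapping pairs. Its Ezh2m-/p+ paternal peak of largest fold, 126 at chr2:165181001-165181999, held the start of a shorter transcript of the gene. Cdh12 (brain cadherin) had 2 peaks of folds 9.03 and 7.52 in Ezh2m+/p+, both past the RefSeq end of the gene, and 7 in Ezh2m-/p+, 5 of them inside the gene.

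Cdh11 (of mesenchyme and bone), Cdh18 (of brain) and Cdh19 (of Schwann cells) had 1 or 2 peaks in each paternal list and none in the maternal lists. Cdh5 (VE-cadherin, of endothelium), Cdh8, Cdh9 and Cdh10 (all of neurons) had 0 assigned peaks, although 1 Ezh2m-/p+ paternal peak of fold 63 assigned to a noncoding gene lay in an intron of Cdh8.

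Cdh24 had the longest member peak of the Ezh2m+/p+ paternal list, chr14:54629801-54638199, of 8399 bp at a fold of 54.9. By assignment Cdh24 had no peak in Ezh2m-/p+. By position it did: a peak of 100199 bp at a fold of 15.3, assigned to the neighbour Ajuba, contained the whole Ezh2m+/p+ peak. The start of Cdh24 lay in a second peak in both genotypes, of 18199 bp at a fold of 30.8 in Ezh2m+/p+ and of 37999 bp at 12.2 in Ezh2m-/p+. These peaks also held the promoter window printed above, which belongs to another annotated start, and were assigned to a microRNA gene. Cdh24 was thus met by paternal peaks in both genotypes and by no maternal peak.

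The other 5 cadherins, of divergent structure, all had peaks, and 4 of them in the maternal lists only. Cdh13 (T-cadherin, which is anchored to the membrane by a lipid and lacks a cytoplasmic tail) had 4 peaks at folds of 29.5 to 44.2 in Ezh2m+/p+ and 3 at 22.2 to 34.4 in Ezh2m-/p+. Its RefSeq start, at the left end of a gene of 1185 kb, lay in an Ezh2m-/p+ maternal peak at chr8:118138201-118140399 (fold 24.5). The authors' annotation placed that peak at -143 kb, relative to a later start. Cdh16 (of kidney epithelium) had 2 peaks, both in the Ezh2m+/p+ maternal list, and 1 of them, chr8:104624201-104625399 at a fold of 29.5, held its start. Cdh17 (of intestinal epithelium) and Cdh23 (of the tip links of hair cells) had 1 peak each in Ezh2m+/p+ and 2 each in Ezh2m-/p+. Cdh26, of mucosal epithelia, had 3, 2, 3 and 4 peaks in the order of the lists, and held the largest member fold of both maternal lists, 59 in an exon (Ezh2m+/p+) and 43.6 at 111 kb from its start (Ezh2m-/p+). Its paternal peaks lay 161 to 257 kb past its start.

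Among the 12 non-clustered protocadherins, Pcdh11x had only paternal peaks and Pcdh15 only maternal peaks. Pcdh11x, an X-linked adhesion gene of the brain of 620 kb, had 0, 0, 54 and 96 peaks in the order of the lists. Only female zygotes receive a paternal X chromosome, and the sex of the zygotes is not given in the sources used here. Pcdh11x ranked 15th of 5157 genes by number of peaks in the Ezh2m+/p+ paternal list and 4th of 6037 in the Ezh2m-/p+ paternal list. Its peaks spread over 1.29 Mb, of which 7.8% was covered by peaks in Ezh2m+/p+ and 20.3% in Ezh2m-/p+. In Ezh2m+/p+ 11 peaks lay before the gene, 15 overlapped it and 28 lay past its end. In Ezh2m-/p+ 19 lay before it and 46 past its end, and 31 overlapped it. Maternal reads gave 42 and 119 peaks on the X chromosome, and none of them lay in the span. They covered 13.1% and 20.8% of the X, the least of any chromosome. The part this plays in the lack of maternal Pcdh11x peaks was not tested.

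In fold, length and GC content the Pcdh11x peaks were close to the other paternal peaks of the X chromosome. Median folds were 48.1 (Ezh2m+/p+) and 63 (Ezh2m-/p+) for Pcdh11x, and 48.1 and 63 for the other X peaks. Their median length was 1599 and 1999 bp, and 1599 and 1999 bp for the others. Median GC content was 41.4% and 39.5%, beside 41% and 39.8% for other X peaks and 44.7% and 44% for the whole lists. Repeat-masked bases made up a median of 50.6% and 44.4%, beside 41.7% and 41.2% on the rest of the X and 20.9% and 21.5% in the whole lists. The run of peaks did not stop with the gene. The genes named next to it in both lists were Pabpc5, with 33 and 59 peaks, and Nap1l3, with 77 and 119. In Ezh2m+/p+ 33 of the 54 Pcdh11x peaks overlapped an Ezh2m-/p+ peak (61.1%, interval 47.8% to 73%), beside 66.1% of the whole list. In the reverse direction 31 of 96 did (32.3%, 23.8% to 42.2%), below the 45.7% of the whole list. An annotated start site of Pcdh11x lay in a peak in both genotypes, at folds of 108 and 7.88.

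**Figure D3:**
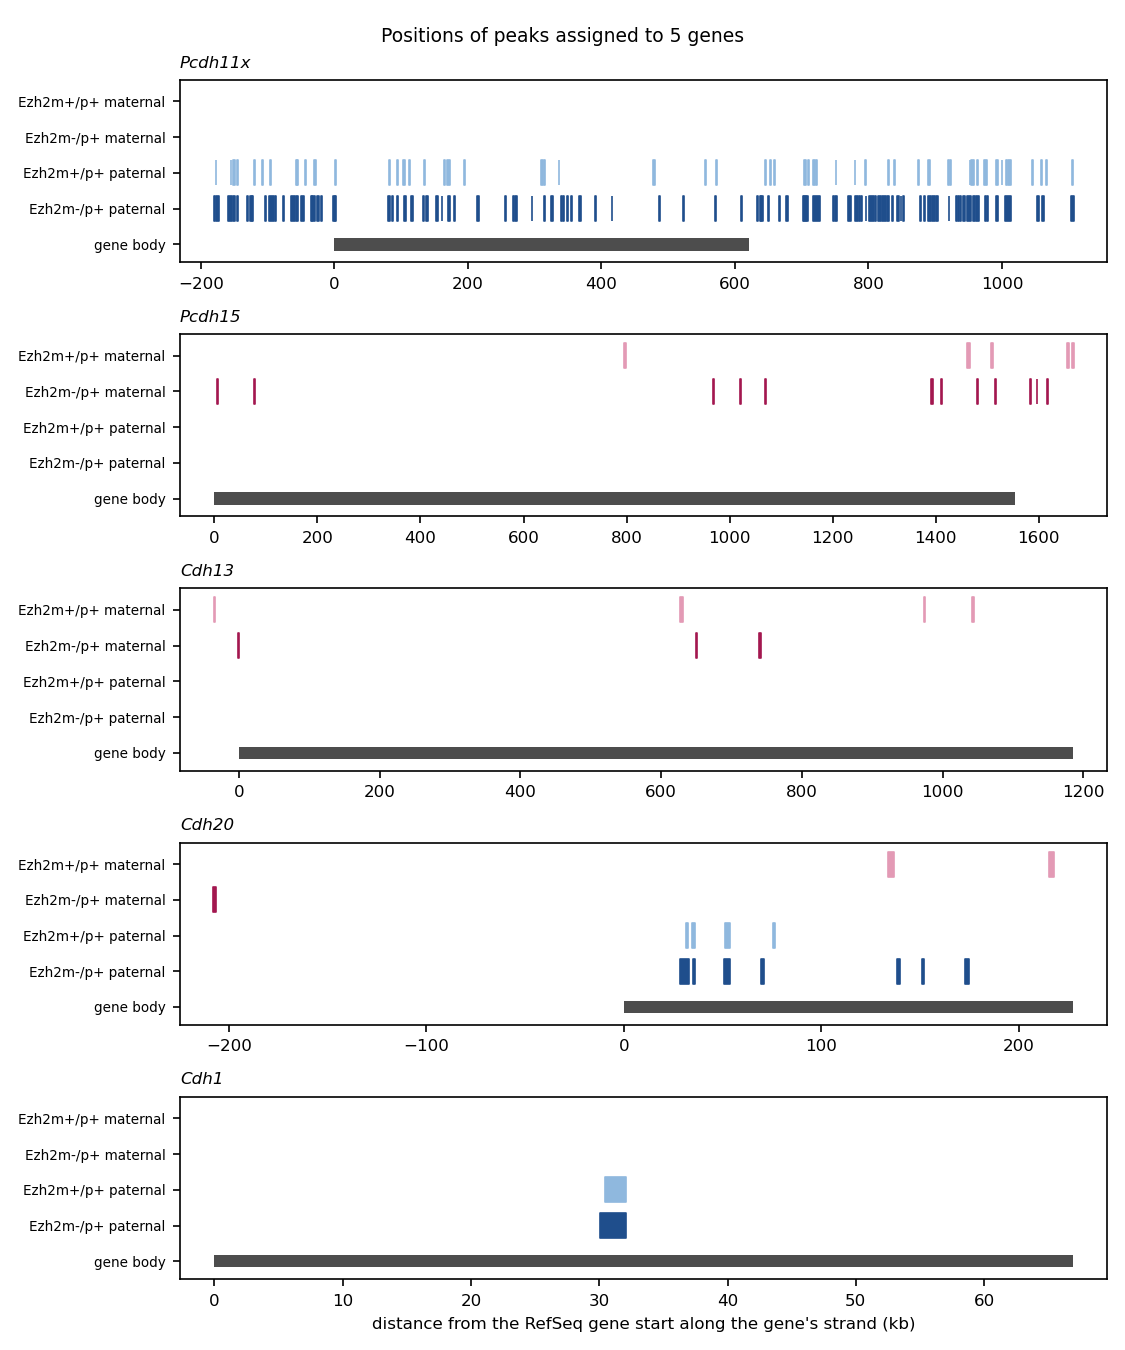
Positions of the peaks assigned to 5 genes, as distance in kb from the RefSeq gene start along the gene's strand, in the 4 lists, with the gene body as a dark bar. Pcdh11x has paternal peaks in the gene and on both sides of it, Pcdh15 and Cdh13 have maternal peaks only, Cdh20 has paternal peaks inside its body, and the Cdh1 peaks of both genotypes coincide.

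Pcdh15, a gene of 1554 kb whose protein forms the hair cell tip link with that of Cdh23, had 5, 12, 0 and 0 peaks. With 12 peaks it ranked 21st of 5326 genes in the Ezh2m-/p+ maternal list. Its Ezh2m+/p+ maternal folds lay between 5.7 and 8.04 and its Ezh2m-/p+ maternal folds between 19.1 and 34.4, without overlap. The whole lists differed the same way, with medians of 7.37 and 23.7. None of the peaks overlapped between the genotypes. The gap between an Ezh2m+/p+ peak and the nearest Ezh2m-/p+ peak was 3.8 kb at least and 36.8 kb at the median, close to the median of 33 kb for all Ezh2m+/p+ maternal peaks, of which 9.47% overlapped. The nearest paternal peak to any Pcdh15 peak was 5782 kb away in Ezh2m+/p+ and 3157 kb in Ezh2m-/p+. Paternal reads covered 1.25% and 1.91% of chromosome 10, which holds Pcdh15, beside chromosome medians of 2.18% and 3.17%. The part this plays in the lack of paternal Pcdh15 peaks was not tested.

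Pcdh18, which acts in cell movement and neuron branching, had 11 and 13 paternal peaks and none in the maternal lists. None overlapped its body of 14.1 kb, and 22 of the 24 lay over 100 kb from its start. Its 6 overlapping pairs included 1 with folds of 15 in Ezh2m+/p+ and 173 in Ezh2m-/p+. Pcdh1 (an epithelial adhesion gene) had 0, 1, 3 and 3 peaks, and held the longest member peak of the Ezh2m-/p+ maternal list, of 2999 bp at a fold of 5.64. Pcdh12 (of endothelium) had 1 peak in each list but the Ezh2m-/p+ maternal one. The Ezh2m+/p+ maternal peak of Pcdh12 held its annotated start at a fold of 10.4, the Ezh2m+/p+ paternal peak lay 2.16 kb past the start at 132, and the Ezh2m-/p+ paternal peak, which overlapped it, had a fold of 11.8. Pcdh19, an X-linked gene of neuronal adhesion, had 2 assigned peaks in each paternal list, all 272 to 1571 kb from its start. Its promoter, printed above, lay inside a peak of the Ezh2m-/p+ maternal list at a fold of 7.07, which was assigned to an overlapping noncoding gene. Pcdh7, Pcdh8, Pcdh9, Pcdh10, Pcdh17 and Pcdh20, genes of the developing nervous system or mesoderm, had 0 assigned peaks. Pcdh9 spans 879 kb, and no peak of any list overlapped it. The body of Pcdh7, of 417 kb, met 1 Ezh2m+/p+ paternal peak assigned to another gene.

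The clustered protocadherins are strings of variable first exons, each with its own promoter, that are spliced to shared constant exons. They had 0 and 4 peaks in the maternal lists and 9 and 10 in the paternal lists, on 14 of 58 genes, and 44 genes had none. Of these 23 peaks 14 were annotated as promoter (60.9%) and 0 as distal intergenic, and the median distance to a start site was 1.5 kb. For the non-clustered protocadherins 4.39% of 205 peaks were promoter peaks and 62.9% distal, and without Pcdh11x 9.09% and 54.5% of 55 peaks. The variable exons lie close together, and how far that spacing sets these shares was not tested. In the Ezh2m+/p+ paternal list 8 of 9 cluster peaks were promoter peaks, in the Ezh2m-/p+ paternal list 5 of 10, and in the Ezh2m-/p+ maternal list 1 of 4, where the others lay 10.1 to 48.3 kb from a start. The Ezh2m+/p+ paternal peaks at starts belonged to Pcdhb6 (fold 84.3), Pcdhga3 (7.52), Pcdhga4 (7.52), Pcdhga6 (48.1) and Pcdhga12 (7.34). Those of Ezh2m-/p+ belonged to Pcdhga3 (8.13), Pcdhga10 (94.6) and Pcdhga11 (7.88). A further Ezh2m-/p+ paternal promoter peak was assigned to Pcdhgb8 (12.8), at chr18:37821601-37823199. It lay at another annotated start far inside that gene, whose RefSeq start is at 37761801. Of these genes only Pcdhga3 had a peak in both genotypes, where 1 Ezh2m-/p+ peak of 5399 bp overlapped 2 Ezh2m+/p+ peaks. Of all paternal peaks, 66.1% (Ezh2m+/p+) and 45.7% (Ezh2m-/p+) overlapped a peak of the other genotype. The difference from the cluster was not tested. The remaining cluster peaks were assigned to Pcdhac2 (0, 2, 1 and 2 peaks), Pcdha12, Pcdhb1, Pcdhb5, Pcdhb7, Pcdhgb6 and again Pcdhgb8. A peak in a constant exon or in an intron before it lies in the bodies of many cluster genes at once, so its gene name is not informative. Median CpG density was 20.2 per kb in the 9 Ezh2m+/p+ paternal cluster peaks and 8.62 per kb in the 10 of Ezh2m-/p+, where the whole lists had 8.7 and 8.19.

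Counted over the RefSeq start of each gene, and whatever gene the peak was assigned to, a start in a peak was rare. In the Ezh2m+/p+ maternal list 1 of the 93 members (Cdh16) had one, beside 0.613% of protein-coding genes, and in the Ezh2m-/p+ maternal list 2 did (Cdh13 and Pcdh19), beside 1.2%. In the Ezh2m+/p+ paternal list 4 did (Cdh24, Pcdhb6, Pcdhga4 and Pcdhga12; 4.3%, beside 2.77%), and in the Ezh2m-/p+ paternal list 4 did (Cdh24, Pcdh11x, Pcdhga3 and Pcdhga10; 4.3%, beside 4.14%). Of these, only Cdh24 recurred. Counts of 1 to 4 genes do not resolve a difference from the background.

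Of the 21 Ezh2m+/p+ maternal member peaks, 0 overlapped an Ezh2m-/p+ maternal peak, which allows a share of up to 14.3%, and 9.47% of the whole list did. In the reverse direction it was 0 of 34, which allows up to 8.82%, beside 5.78%. In the paternal genome 65 of 123 Ezh2m+/p+ member peaks overlapped an Ezh2m-/p+ peak (52.8%, interval 44.1% to 61.4%), below the 66.1% of the whole list, and 58 of 186 Ezh2m-/p+ member peaks overlapped an Ezh2m+/p+ peak (31.2%, 25% to 38.2%), below 45.7%. Without Pcdh11x the shares were 46.4% and 30%. The Ezh2m+/p+ paternal member peaks formed 67 pairs with overlapping Ezh2m-/p+ peaks, on 14 genes, 35 of them at Pcdh11x. In the Cdh24 pair the Ezh2m-/p+ peak was assigned to Ajuba, which is not a member. The Ezh2m-/p+ peak was the longer in 46 pairs (68.7%, beside 68.4% of all 12640 paternal pairs) and had the higher fold in 29 (43.3%, beside 39.6%). Median lengths in these pairs were 1599 bp (Ezh2m+/p+) and 3199 bp (Ezh2m-/p+).

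**Figure D4:**
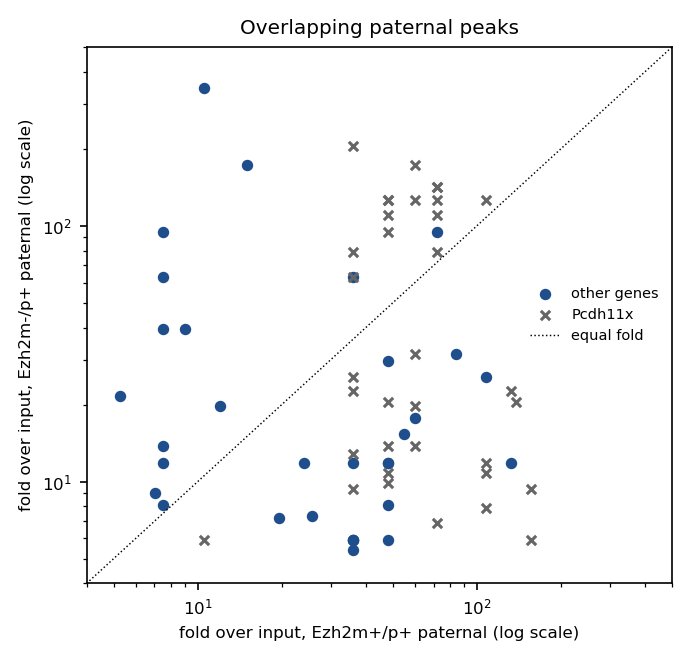
Folds over input of the 67 pairs of an Ezh2m+/p+ paternal member peak and an Ezh2m-/p+ paternal peak that overlapped it. Ezh2m+/p+ is on the horizontal and Ezh2m-/p+ on the vertical axis, both on log scales, with the line of equal fold. In the Cdh24 pair the Ezh2m-/p+ peak was assigned to Ajuba. Points lie on both sides of the line, 29 above (43.3%, beside 39.6% of all paternal pairs) and 38 below it, and fall on repeated values on each axis.

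Between the parental genomes no member peak overlapped. This held for 0 of 21 maternal peaks in Ezh2m+/p+, which allows up to 14.3%, and for 0 of 34 in Ezh2m-/p+, which allows up to 8.82%. In the whole lists 0.418% and 0.416% of maternal peaks overlapped a paternal peak, so that a share of this size was not detectable with these numbers. Within 10 kb, 2 and 3 maternal member peaks had a paternal neighbour (9.52% and 8.82%), beside 5.9% and 7.22% of the whole lists. From a maternal member peak to the nearest paternal peak the median gap was 2022 kb (Ezh2m+/p+) and 2046 kb (Ezh2m-/p+), where the whole lists had 268 and 250 kb. Pcdh15 alone supplied 5 of the 21 and 12 of the 34 maternal peaks, with median gaps of 6494 and 4552 kb. A median without Pcdh15 was not computed.

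A larger share of member peaks was distal intergenic in the paternal than in the maternal lists, a contrast that was not tested. In the maternal lists 23.8% (interval 10.6% to 45.1%) and 32.4% (19.1% to 49.2%) of member peaks were distal intergenic, and the whole lists had 33.9% and 35.8%. In the paternal lists 61.8% (53% to 69.9%) and 59.1% (52% to 65.9%) were, above the 40.2% and 40.7% of the whole lists. Without Pcdh11x these paternal shares were 56.5% (44.8% to 67.6%) and 53.3% (43.1% to 63.3%), with intervals that overlap the maternal one of the same genotype. Over 100 kb from a start site were 38.1%, 32.4%, 63.4% and 66.7% of member peaks in the order of the lists, beside 15.7%, 16%, 20.1% and 22.5% of all peaks. Without Pcdh11x the paternal values were 55.1% and 56.7%. Promoter peaks made up 14.3%, 8.82%, 9.76% and 5.38% of member peaks, beside 15.8%, 16.5%, 17.3% and 16.9%. Without Pcdh11x the paternal promoter shares were 14.5% (8.07% to 24.7%, which includes 17.3%) and 8.89% (4.57% to 16.6%).

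Median folds of member peaks were 8.38 (Ezh2m+/p+ maternal), 24.5 (Ezh2m-/p+ maternal), 36.1 (Ezh2m+/p+ paternal) and 63 (Ezh2m-/p+ paternal), beside 7.37, 23.7, 36.1 and 15.8 for all peaks. The last was 35.5 without Pcdh11x. The fold is a coarse value in the paternal lists. The 123 member peaks of Ezh2m+/p+ had only 25 different folds, and 36 of them had the same fold of 36.1, which 3350 peaks of that list shared. In Ezh2m-/p+ 36 of 186 member peaks had a fold of 63. Read numbers per peak were not given, so the error of a single fold is unknown. Median lengths were 3199, 1899, 1599 and 1999 bp, beside 2999, 2199, 1799 and 1999 bp.

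**Figure D5:**
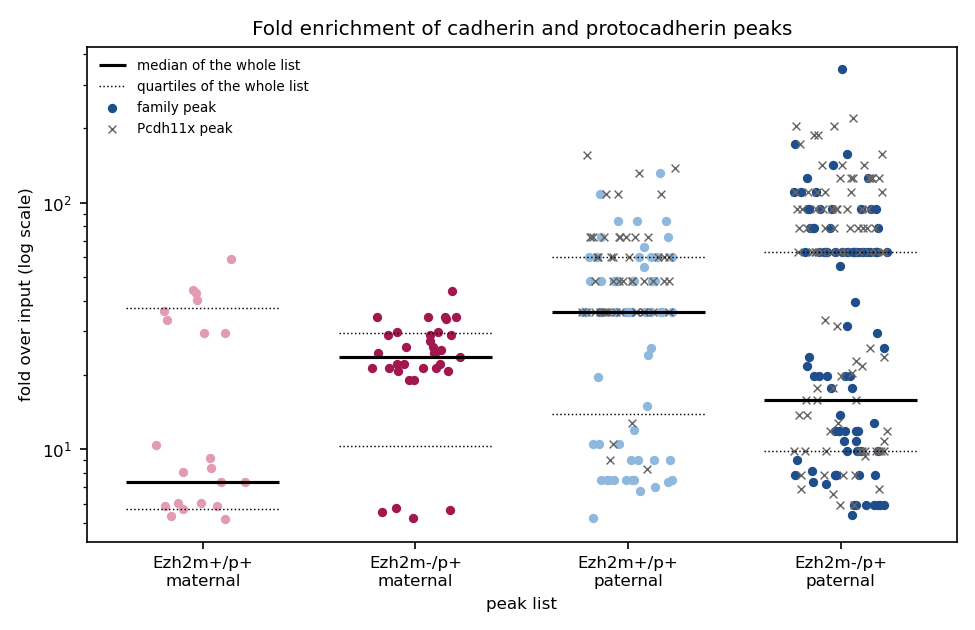
Fold over input (log scale) of each member peak in the 4 lists, with Pcdh11x peaks as crosses and the median (solid line) and quartiles (dotted lines) of each whole list. Paternal points fall on shared levels such as 36.1 and 63, and the Cdh20 peak at 347 is the highest point.

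Among 27 further genes of the cadherin superfamily (Fat, Dchs, Celsr, calsyntenin, Cdhr, desmosomal cadherins and Ret), 5, 7, 3 and 4 had a peak in the order of the lists (18.5%, 25.9%, 11.1% and 14.8%), beside 14.6%, 21.1%, 20.3% and 23.8% of protein-coding genes. These genes held 9, 12, 10 and 12 peaks. Fat4, a giant cadherin of planar polarity, had 9 peaks, all of them paternal, while Fat3 had 6 and Clstn2 5, all of them maternal. Others had both kinds: Cdhr3 had 1 maternal and 9 paternal peaks, and Celsr1 had 2 and 3. Of the 14 catenins and partners that link cadherins to the cytoskeleton, 8, 10, 3 and 6 had a peak (57.1%, 71.4%, 21.4% and 42.9%, beside the same background), and gene length was not matched here. Ctnna2, the neuronal alpha-catenin, had 1 maternal peak and 12 paternal ones, and Ctnnb1, beta-catenin, had 1 of each.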

How the data were processed

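According to the authors' methods and processing notes, paired reads passed through Trimmomatic 0.38, Bowtie2 (mm10), SAMtools and Picard, and SNPsplit divided them into C57BL/6 (maternal) and PWK (paternal) reads. SICER called peaks against the input, limits of 1000 bp and a fold of 5 were applied (the shortest listed peak has 999 bp), and ChIPseeker assigned each peak to a gene. Genotypes come from the labels and the methods. The deposited lists give a ratio, the fold over input, for each peak. The deposited coverage table holds a covered fraction for each chromosome, and its oocyte values were not used. The paper lists depth by library, but depth per parental genome is unknown, and intervals cover counting error only.

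RefSeq (GRCm38.p6) gave a symbol to 99.9% of 11472 identifiers. Subfamilies follow the classical grouping. Gene bodies, starts, strands, GC content and repeat masking come from RefSeq. Lists were compared by an overlap of 1 bp, and shares have 95% Wilson intervals (Python 3.11.15, numpy 2.4.6, pandas 2.3.3, scipy 1.17.1). Overlap and interval code was tested on simulated data. With 1 library per genotype, no test was run. An upper limit for a count of 0 used 3 counts.

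The members and lists were chosen with earlier results of these data known. The genes described were the 10 with most peaks, those with the largest fold or longest peak of a list, a peak in all lists, at a start site or shared, and Cdh1, Cdh2, Cdh3, Cdh5, Cdh13, Pcdh8, Pcdh10 and Pcdh19. Others were named to account for all members, after their values were seen. Of the members, 22 had a RefSeq promoter window. Alternatives tried were a minimum length of 2000 bp, a minimum fold of 10, overlap with the gene body, lists of equal size, base pairs, 100 kb from the start site, autosomes, genes of 100 kb, a reciprocal overlap of 50%, the other list as base, 10 kb between parental genomes and 1 kb for promoters. Leaving out Pcdh11x was chosen after seeing the data.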

Additional observations from a re-analysis of the deposited data

Results flagged for a closer look

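Some measures of the family moved in opposite directions between the genotypes in the 2 parental genomes, each from 1 library per genotype, and the difference was not tested. In the maternal lists the family held 0.366% (Ezh2m+/p+) and 0.354% (Ezh2m-/p+) of all peaks, and it held 0.689% and 0.815% in the paternal lists. The share of the 93 genes with a peak was 10.8% and 17.2% in the maternal lists, and 26.9% and 25.8% in the paternal lists. The share of member peaks in distal intergenic sequence was 23.8% and 32.4% in the maternal lists, and 61.8% and 59.1% in the paternal lists. Each of these contrasts was lost under some alternative. The maternal share of peaks rose, as the paternal one did, with lists of equal size (0.366% to 0.383%) and over a fold of 10 (0.387% to 0.416%). The paternal share of genes rose with gene-body overlap (49.5% to 53.8%) and within 100 kb of the start site (20.4% to 21.5%), as the maternal one did. The paternal distal share rose over 2000 bp (51.6% to 72.2%) and by base pairs (59.2% to 64.8%), as the maternal one did. In all 3 measures and both parental genomes the value of Ezh2m-/p+ lay inside the counting interval of Ezh2m+/p+.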

How the results depend on the processing

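No paired analysis was possible because each genotype has 1 library. Of 126 values under an alternative, 87 stayed inside the counting interval (for counts and densities, within 1.5 times) and 39 did not. The family's share of peaks fell to 0.229% (Ezh2m-/p+ maternal), 0.252% (Ezh2m+/p+ paternal) and 0.311% (Ezh2m-/p+ paternal) with gene-body overlap. For the paternal lists, Ezh2m+/p+ before Ezh2m-/p+, it was 0.315% and 0.351% within 100 kb of the start site, 0.388% and 0.403% on autosomes, 0.386% and 0.394% without Pcdh11x and 0.549% and 0.67% of covered bases. It was also 0.473% over 2000 bp in Ezh2m+/p+ and 1.11% with lists of equal size in Ezh2m-/p+. The share of genes with a peak, for Ezh2m-/p+ maternal, Ezh2m+/p+ paternal and Ezh2m-/p+ paternal, was 47.3%, 49.5% and 53.8% with gene-body overlap, where 1 peak in the cluster counts for many genes, and 7.53%, 15.1% and 15.1% over 2000 bp. With lists of equal size it was 15.1% and 11.8% in the paternal lists. The paternal overlap between genotypes was 22% at a reciprocal 50% (31.4% for the whole list), 41% over a fold of 10 and 31.2% of Ezh2m-/p+ peaks. The promoter share was 0% within 1 kb in the Ezh2m-/p+ maternal list, and over 2000 bp it was 19.4% and 2.53% in the paternal lists, with 51.6% and 72.2% distal. Of non-clustered protocadherin peaks 9.09% were promoter and 54.5% distal without Pcdh11x. The paternal densities over long members were then 1.47 and 2.61 peaks per Mb. Cluster peaks numbered 1 in Ezh2m+/p+ maternal by gene body, 2 and 6 over a fold of 10 in Ezh2m-/p+ maternal and paternal, and 0, 3 and 1 over 2000 bp in Ezh2m-/p+ maternal, Ezh2m+/p+ paternal and Ezh2m-/p+ paternal. The cause of these shifts was not tested. All lists rest on reads over strain variants, and paternal reads covered little of each chromosome.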
